A study of Mus musculus with 6 samples.

Results

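The genes described here encode the complexes that build lysosome-related organelles, the family of organelles to which the melanosome belongs. The list holds 32 genes: 8 of BLOC-1, 3 of BLOC-2, 2 of BLOC-3, 5 subunits of the adaptor AP-3, 4 of the adaptor AP-1, 6 of the HOPS tether and 4 partner genes. Members were found by gene symbol in the annotation of the array, and that rule used no measured value. The list itself was chosen with earlier results of these data known. A probe set of its own was present for 31 of them, 68 probe sets in all. Bloc1s1 lacked one, because its symbol appears only on a probe set shared with another gene, and it was not analysed here. Each gene was represented by its brightest probe set. After a filter on low signals 30 genes remained, out of 12902 genes tested.

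The arrays compared the posterior eye of wild-type (WT) mouse embryos with that of embryos lacking Oa1, now called Gpr143, at embryonic day 15.5. The Oa1-/- and WT groups have 3 arrays each. An array carries RNA pooled from the eyes of 6 embryos of a single dam, so a replicate is a litter pool, and by the labels the anterior segments had been dissected away. The labels name the genotype and the age and no strain, sex or allele. Per the submitters' processing notes the signals come from MAS5, on a linear scale with no unit. On the WT arrays Gpr143 itself (probe set 1420581_at) read 250.05, 257 and 246. The Oa1-/- values were 28.3, 39.1 and 6.02, so that the gene followed the labels on all 6 arrays. Its log2 change was −2.82 (SE 0.33, adjusted p = 0.287 in limma), and with each array centred on its median it was −2.79 and passed the threshold (adjusted p = 0.000635).

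Melanosomes receive their enzymes from early and recycling endosomes. AP-3 and AP-1 select the cargo, BLOC-1 shapes the endosomal tubules that carry it, BLOC-2 directs those tubules to the melanosome, and BLOC-3 activates the small GTPases Rab32 and Rab38 there. HOPS tethers membranes before they fuse with late endosomes and lysosomes. Mutations in several of these genes cause Hermansky-Pudlak syndrome, in which pigment of the skin and eyes is reduced and platelets are abnormal, and the classic mouse coat-colour mutants pallid, sandy, pearl, mocha, pale ear and ruby-eye carry changes in them. The complexes work in nearly all cells, and the RNA came from the whole posterior eye. In such bulk samples fewer pigment cells and less RNA per cell cannot be told apart.

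Markers placed pigment cells in the dissected tissue. The highest value of any Bacillus control probe set was 39.3. All 7 measured melanosome genes of 8 listed, among them Tyr, Tyrp1 and Dct, gave signals above it on every array. Of 8 pigment epithelium markers 5 did so, while the visual cycle genes Rpe65 and Lrat and the channel gene Best1 did not. Lens, mesenchyme, muscle, blood, macrophage and endothelial markers gave signal above these controls as well, with the globin gene Hba-a1 as the exception. The lens markers had the highest sum of all the marker sets, 77253 to 102830 over the arrays, although the labels describe posterior segments. WT replicate 3 stood apart, with a Y-linked Eif2s3y signal of 9.26 against at least 406 on the other arrays, and Oa1-/- replicate 1 held 64.7% of the weight of the first principal component. Without WT replicate 3 the members had 18 positive and 12 negative changes, against 14 and 16 over all arrays.

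Some promoters of these genes hold a short sequence that pigment cell and lysosome regulators are known to bind. The E-box CACGTG, which reads the same on both strands, is bound by Mitf and by its relatives Tfeb and Tfe3. Promoters from 250 bases before to 50 after the annotated start (RefSeq, GRCm38.p6) were at hand for 25 members. CACGTG occurred in those of 7 genes (28%), beside 8.91% of all 17491 protein-coding genes in the same table. Among genes tested on the arrays it occurred in 6 of 23 members (26.1%), beside 11.5% of 10097 genes. A second E-box, CATGTG, searched on both strands and different in letters from the first on either, occurred in 4 of 25 (16%), beside 13.2% of all protein-coding genes. In 6 of the 7 genes the first base of each CACGTG lay at most 28 bases upstream of the start, and in Hps5 it lay 227 and 192 bases upstream, of which the farther is shown. The stretches of 30 bases around the matches are shown because they carry the letters these 7 genes have in common, which are in capitals. The coordinates are chr10:128923518-128923547 for Bloc1s1, chr7:19508361-19508390 for Bloc1s3, chr19:42779962-42779991 for Hps1, chr3:20035308-20035337 for Hps3, chr7:46796091-46796120 for Hps5, chr2:130424290-130424319 for Vps16 and chr5:123573018-123573047 for Vps33a. Vps16 lies on the plus strand and the others on the minus strand, and each is written 5′ to 3′ along its gene.
Bloc1s1: gcgtCACGTGatactgcgatCACGTGacgc
Bloc1s3: cataactcggctCACGTGacgctgcgagag
Hps1: atgtggctgagtCACGTGtcctacccggaa
Hps3: ggtcgcagcgctCACGTGatccggagcagc
Hps5: gggcgctgagggCACGTGaccggaaacgcc
Vps16: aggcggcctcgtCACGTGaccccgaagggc
Vps33a: ggatCACGTGaacgtcccgtCACGTGacgc

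Bloc1s1 and Vps33a each hold the letters at a pair of places, 16 bases apart in both. Of the 6 tested genes with CACGTG, 1 had a positive and 5 had a negative log2 change, with a median of −0.07 and a range from −0.23 to 0.02. The 17 tested genes with a promoter and no CACGTG had 8 positive and 9 negative changes and a median of −0.00. These are matches of letters, and no binding was measured.

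No member passed the threshold between genotypes. On the log2(signal + 16) scale, 0 of 30 members had an adjusted p below 0.05 in limma, beside 0 of 27029 probe sets (0%) and 0 of 12902 genes. At an unadjusted p below 0.05 there was 1 member, Ap3s1, or 3.33% of those tested, while the share was 3.64% of all genes and 4.11% of all probe sets. The members' median log2 change was −0.01, with 14 positive and 16 negative, and over all genes it was 0.00, with 50.8% positive. Individual changes ran from −0.23 for Hps5 to 0.24 for Snapin. The median size of a change, sign left aside, was 0.06 in the members and 0.09 over all genes.

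**Figure D1:**
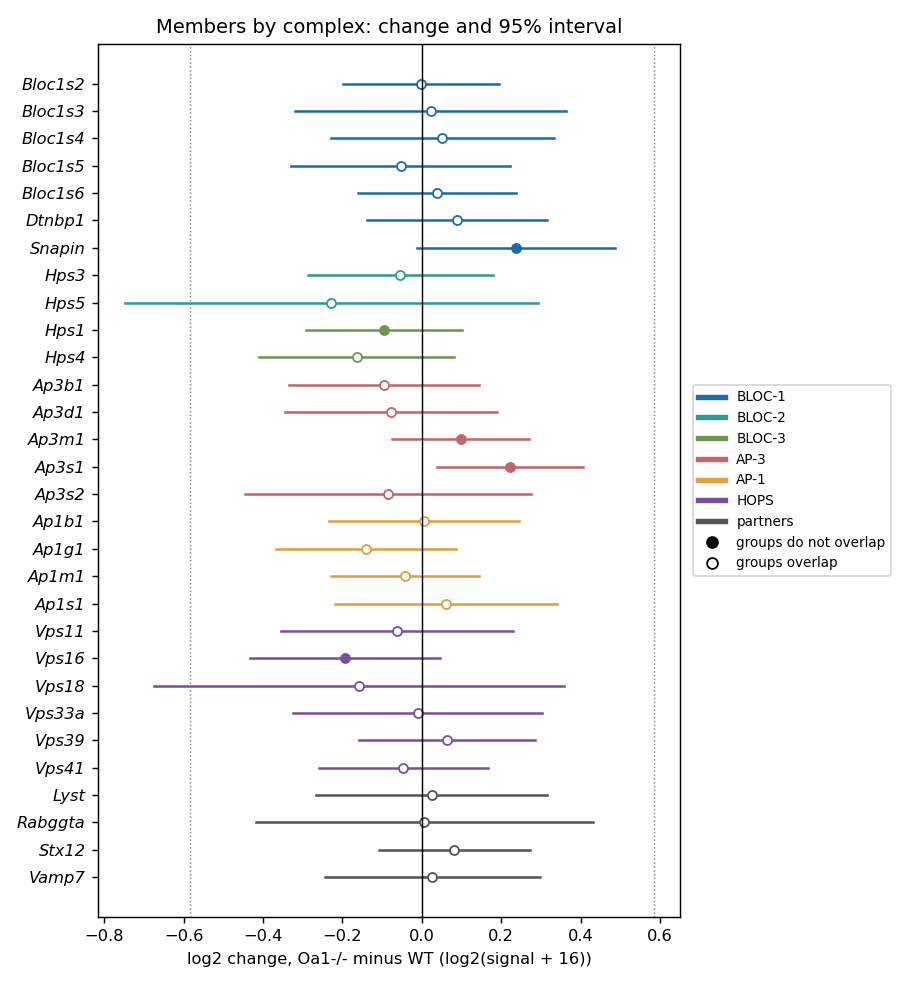
The log2 change of each tested member on its brightest probe set (x axis, Oa1-/- minus WT on the log2(signal + 16) scale), with its unadjusted 95% interval from limma as a line and the complex as the colour. Filled points mark the 5 genes whose groups do not overlap, and dotted lines mark a 1.5-fold difference either way; the intervals of Hps5 and Vps18 are the ones that reach past a dotted line.

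The arrays bounded these differences more closely than most. The unadjusted 95% interval of the change lay within 1.5-fold in either direction for 28 of 30 members, beside 77.4% of all genes. Standard errors ran from 0.08 to 0.23 with a median of 0.11, while the median over all genes was 0.13. The wide intervals belonged to dim genes. Hps5, at a mean signal of 219 in WT, had an interval from −0.75 to 0.29, and Vps18, at 249, had one from −0.67 to 0.36. A missed threshold does not show equal levels, and these intervals give the size of difference that the arrays leave possible.

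Groups did not overlap for 5 members (16.7%), beside 10.8% of all genes. In Ap3s1, Ap3m1 and Snapin the Oa1-/- arrays lay above (10% of members, beside 5.49% of genes), and in Vps16 and Hps1 they lay below (6.67%, beside 5.3%). Each of the 5 had an exact two-sided permutation p of 0.1, the smallest that 3 against 3 can give. Groups that do not overlap always give this value, so it adds nothing to the separation. Beyond the brightest probe sets, 0 further ones of the 58 tested member probe sets separated the groups, so the share over all of them was 8.62%, beside 10.2% of all probe sets.

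AP-3 is the adaptor that sorts tyrosinase and other cargo toward melanosomes and lysosomes, and its 5 subunits were split. Ap3s1 and Ap3m1 had positive changes, and Ap3b1, Ap3d1 and Ap3s2 had negative ones. Ap3s1 (1422593_at), which encodes a small sigma chain, read 4633, 4458 and 4118 on the WT arrays and 5131, 4841 and 5452 on the Oa1-/- arrays. Every Oa1-/- array was above every WT array. The means were 4403 ± 262 and 5141 ± 305 (SD, n = 3), 1.17-fold apart in the fit. On the log2 scale the difference was 0.22, with an SE of 0.08, a 95% interval from 0.04 to 0.41 and an adjusted limma p of 0.985. Ap3s1 has only this probe set, so no second measurement on the array stands beside it.

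With arrays left out the change of Ap3s1 stayed between 0.18 and 0.27. Some control and marker quantities had separate ranges in the genotypes, as did all 5 members whose groups do not overlap. The 3′ control probe set for 18S ribosomal RNA read 1476 to 1988 in WT and 2608 to 6348 in Oa1-/-, and the 5′ one read 2227 to 4049 and 4828 to 11826, while the groups overlapped on the probe set for the middle of that RNA. The 5′ control probe set for Gapdh read 16994 to 18136 in WT and 18981 to 21475 in Oa1-/-. On the 3′ and middle Gapdh probe sets and on the actin control probe sets the groups overlapped. The summed signal of the retinal ganglion cell markers was 28615 to 33094 in WT and 34188 to 37234 in Oa1-/-. Of these markers 5 of 6 were measured, and all 5 lay above the Bacillus controls. The sums of the other marker sets overlapped between the genotypes. The part of the separate quantities in the results for Ap3s1, Ap3m1, Snapin, Vps16 and Hps1 was not tested.

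Ap3m1 (1448308_at), the mu chain that recognises sorting signals, had signals of 1710, 1783 and 1831 in WT and 1913, 1862 and 1927 in Oa1-/-. The highest WT array and the lowest Oa1-/- array were close together. The log2 change was 0.10 (SE 0.08, adjusted p = 0.985 in limma). All 4 of its probe sets had positive changes, from 0.02 to 0.14, which makes Ap3m1 the member with the most probe sets of a single sign. The groups overlapped on the other 3.

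The large chains had lower means in Oa1-/-. Ap3b1, the beta chain mutated in pearl mice, had means of 1760 ± 106 in WT and 1651 ± 189 in Oa1-/- (log2 change −0.10), and its second probe set had a change of −0.27. Without Oa1-/- replicate 1 the change of the first was −0.01. Ap3d1, the delta chain mutated in mocha mice, had means of 2562 ± 379 and 2411 ± 159 (log2 change −0.08), and without WT replicate 3 the change was 0.02. Ap3s2, the other sigma chain, had a change of −0.08, which was 0.08 without WT replicate 3. In these genes the arrays of both genotypes were interleaved. The median of the complex was −0.08 over all arrays and 0.08 without WT replicate 3, since with that array left out 4 of 5 changes were positive. Without Oa1-/- replicate 1 the median was −0.01.

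BLOC-1 acts on recycling endosomes and is needed for melanosomal cargo such as Tyrp1 to leave them. Its 7 tested subunits had 5 positive and 2 negative changes with a median of 0.04, and without Oa1-/- replicate 1 there were 3 positive and 4 negative, with a median of −0.00. Without WT replicate 3 there were 6 positive and 1 negative, with a median of 0.08. Snapin (1426578_s_at), a subunit shared with the lysosome-positioning complex BORC and first known as a binding partner of a synaptic SNARE, had the highest change of all members. Its signals were 1023, 1278 and 1291 on the WT arrays and 1357, 1439 and 1429 in Oa1-/-. WT replicate 1 was far under the other WT arrays, which lay close to the Oa1-/- ones. The means were 1198 ± 151 and 1408 ± 44.6 (SD, n = 3). They differed by 0.24 on the log2 scale, with an SE of 0.11, a 95% interval from −0.01 to 0.49 and an adjusted limma p of 0.985.

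The value of Snapin depended on that array and on the probe set. With arrays left out the change ran from 0.13 without WT replicate 1 to 0.32, and it was 0.30 without WT replicate 3. Its other probe set, 1415756_a_at, gave 1095, 1166 and 1109 in WT and 1135, 1064 and 1171 in Oa1-/-, a log2 change of −0.00. Both probe sets carry a suffix given to those that match more than 1 transcript.

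The remaining BLOC-1 subunits lay close to 0. Dtnbp1 (dysbindin, mutated in sandy mice) had a change of 0.09, Bloc1s4 (cappuccino) 0.05, Bloc1s6 (pallidin, mutated in pallid mice) 0.04, Bloc1s3 0.02, Bloc1s2 −0.00 and Bloc1s5 (muted) −0.05. Their intervals all included 0 and their groups overlapped. Bloc1s6 was the brightest, at 2841 ± 159 in WT and 2922 ± 236 in Oa1-/-, but signals of different probe sets are not on a common scale and give no order of RNA levels. Bloc1s2, which is also a BORC subunit, had means of 2086 ± 137 and 2082 ± 119, the smallest difference of any member on the log2 scale.

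BLOC-2, made of the products of Hps3, Hps5 and Hps6, was the least well measured complex. Hps5 (ruby-eye-2, 1434677_at) had signals of 270.2, 215 and 173 in WT and 166, 240.2 and 150.4 in Oa1-/-. The arrays of the genotypes were mixed, with the range within WT wider than the difference of the means. The means were 219 ± 48.9 and 186 ± 47.9 (SD, n = 3). Their log2 difference was −0.23, as large as its SE of 0.23, at an adjusted limma p of 0.985. Leaving out arrays moved it between −0.41 and −0.08, and it was −0.08 without WT replicate 1. Hps3 (cocoa) had means of 796 ± 56.9 and 766 ± 40.04 (log2 change −0.05). Hps6 (ruby-eye) gave 20.6, 9.30 and 50.3 in WT and 37.9, 4.96 and 5.33 in Oa1-/-. Those signals lie around the Bacillus controls, whose highest values ran from 22.1 to 39.3, and Hps6 was not tested.

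BLOC-3 is the exchange factor for Rab32 and Rab38, and both of its subunits had lower means in Oa1-/- on their brightest probe sets. Hps1 (pale ear) gave 1296, 1288 and 1434 in WT and 1286, 1243 and 1227 in Oa1-/-. The groups were separated by the narrow gap between 1286 and 1288, and WT replicate 3 was the highest. The log2 change was −0.09 (SE 0.09, adjusted p = 0.985 in limma), and it was −0.04 without WT replicate 3. This probe set, 1459827_x_at, has a suffix that marks probes shared with other sequences, and the 3 other Hps1 probe sets were under the filter. Fitted with no filter, those 3 had positive changes of 0.11, 0.83 and 0.10, at group means from 37.7 to 72.9. Hps4 (light ear) had means of 918 ± 55.5 and 820 ± 80.4, a log2 change of −0.16 (SE 0.11), with overlapping groups. Leaving out WT replicate 3 and Oa1-/- replicate 1 together took the change of Hps4 to −0.06, and leaving out Oa1-/- replicate 2 took it to −0.24.

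Rab32 and Rab38 themselves, the GTPases that BLOC-3 acts on, had log2 changes of −0.03 and 0.12. Mean signals were 1004 ± 117 (WT) and 1092 ± 131 (Oa1-/-) for Rab38, and the second Rab38 probe set had a change of −0.09. Those of Rab32 were 213 ± 28.6 and 208 ± 14.4, and the arrays overlapped for both genes.

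**Figure D2:**
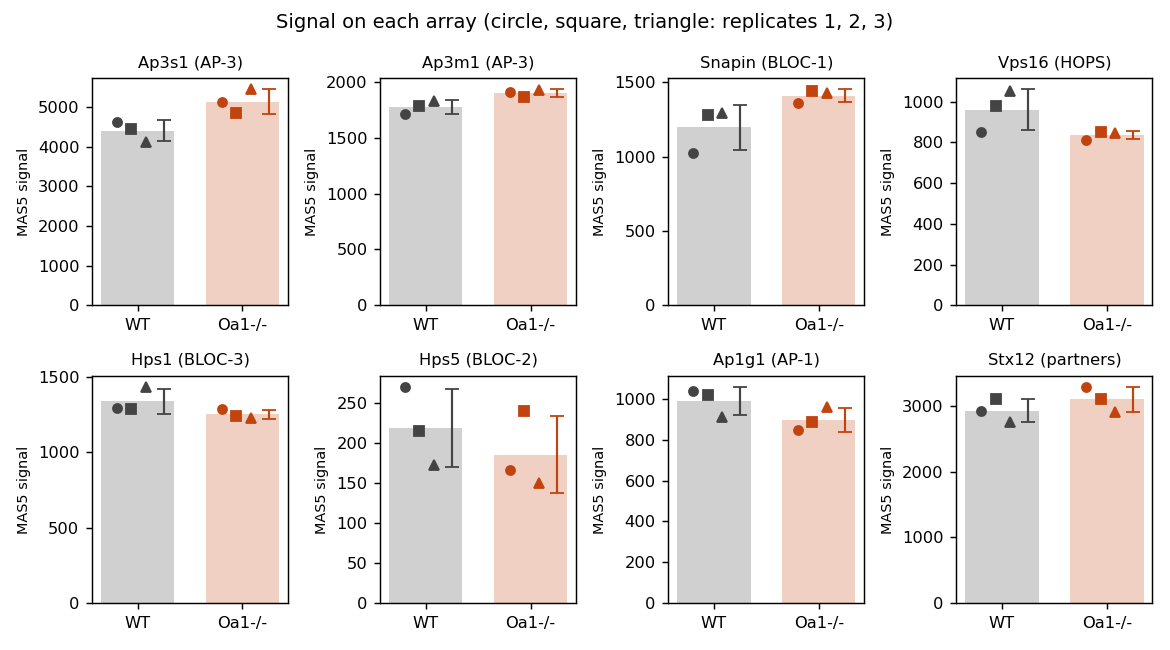
MAS5 signal (y axis, linear, starting at 0) on each array for the 5 members whose groups do not overlap and for the member with the smallest p in BLOC-2, AP-1 and the partners. Bars are means, error bars are SD (n = 3) and markers are replicates 1 to 3; Ap3s1 shows 4118 to 4633 in WT and 4841 to 5452 in Oa1-/-, while Hps5 and Stx12 show interleaved arrays.

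HOPS holds lysosomes and late endosomes together before fusion, and its Vps33a subunit is mutated in the hypopigmented buff mouse. Of its 6 subunits 5 had negative changes, with a median of −0.05. Vps16 (1416254_a_at) gave 854, 980 and 1051 in WT and 813, 851 and 844 in Oa1-/-. The groups were separated by the gap between 851 and 854, and WT replicate 1 lay beside the Oa1-/- arrays. Mean signals were 962 ± 100.2 and 836 ± 20.0 (SD, n = 3). The log2 difference of −0.19 had an SE of 0.10, a 95% interval from −0.43 to 0.05 and an adjusted limma p of 0.985. Without WT replicate 1 it was −0.28. Without WT replicate 3 it was −0.13, and with Oa1-/- replicate 1 also left out it was −0.11.

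The lower Oa1-/- median of HOPS moved with single arrays. WT replicate 3 was the highest of the 6 for all 6 HOPS genes, with a median of 0.19 above each gene's own mean on the log2 scale. Over all 30 members WT replicate 3 was the highest for 14 (46.7%), and over all genes for 23.6%. Vps33a, for example, gave 504, 543 and 656 in WT and 627, 512 and 546 in Oa1-/-. Without that array HOPS had 3 positive and 3 negative changes and a median of 0.00. Without Oa1-/- replicate 3 the median was −0.01, and without WT replicate 3 and Oa1-/- replicate 1 together it was −0.03. Leaving out any other single array lowered the HOPS median from its −0.05 over all arrays. Dropping WT replicate 1 gave −0.10, WT replicate 2 −0.07, Oa1-/- replicate 1 −0.10 and Oa1-/- replicate 2 −0.08. WT replicate 3 also had the highest sum of pigment epithelium markers, 14278 against 10068 to 11454 on the other 5. Its sums of melanosome, lens, mesenchyme and endothelial markers were the highest of the 6 too. Those of retinal progenitor, ganglion cell, muscle and macrophage markers were not. Its sum of red blood cell markers was the lowest, 3505 against 6824 to 22945. All 8 pigment epithelium markers entered their sum. Of the blood markers 4 of 5 were measured, 3 of them above the Bacillus controls on all arrays. Their part in the pattern was not tested.

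Among the other HOPS subunits Vps18 had a change of −0.16 (SE 0.23), which ran from −0.37 without WT replicate 1 to −0.02 without Oa1-/- replicate 3. Vps11 had a change of −0.06, Vps41 −0.05, Vps33a −0.01 and Vps39 0.06. All had overlapping groups. Vps39, which binds Rab7 on late endosomes, had means of 768 ± 54.2 in WT and 803 ± 14.9 in Oa1-/-.

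**Figure D3:**
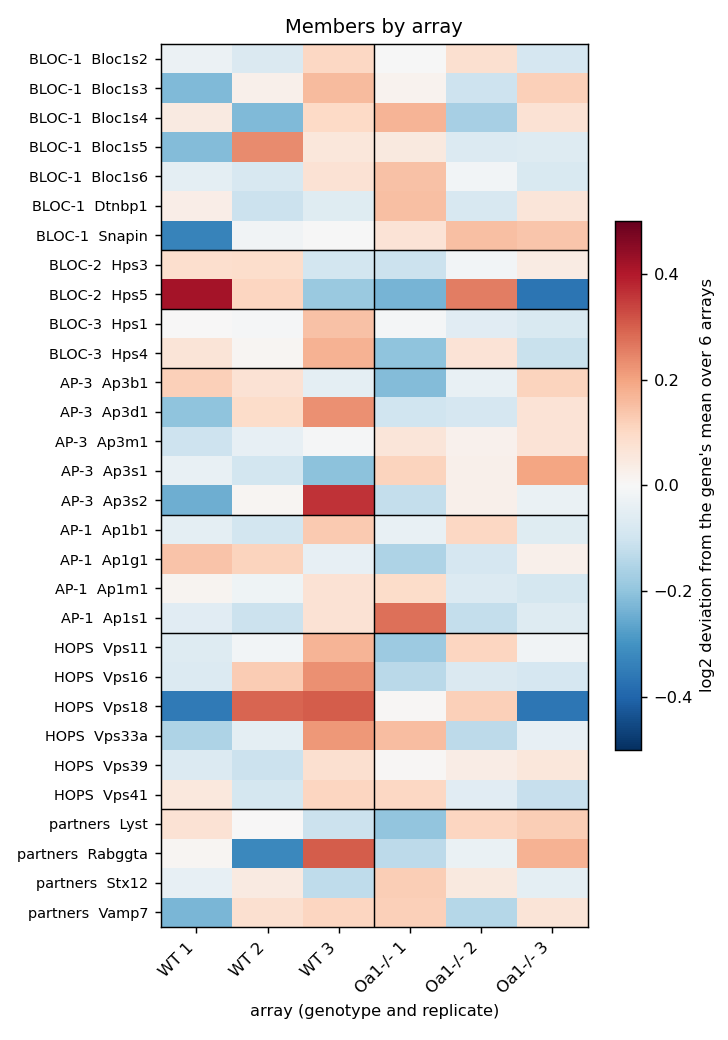
Heat map of the 30 tested members (rows, grouped by complex) over the 6 arrays (columns), coloured by the log2 deviation of each signal from the gene's own mean. The 6 HOPS genes are all highest on WT replicate 3, and no complex shows a block of a single colour that follows the genotype.

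AP-1, the clathrin adaptor that works with the kinesin Kif13a to bring recycling endosomes close to melanosomes, had 2 positive and 2 negative changes and a median of −0.02. Without WT replicate 3 the median was 0.03, and without Oa1-/- replicate 1 it was −0.08, with 1 positive and 3 negative. Ap1g1 (1434081_at), the gamma chain, gave 1042, 1020 and 915 in WT and 846, 887 and 961 in Oa1-/-. WT replicate 3 fell among the Oa1-/- arrays. The log2 change was −0.14 (SE 0.10, adjusted p = 0.985 in limma), and its other tested probe sets had changes of −0.29, 0.01 and 0.04. Ap1s1, a sigma chain, had a change of 0.06, which came from Oa1-/- replicate 1 at 1422, since without that array it was −0.06. Ap1b1 had a change of 0.01 and Ap1m1 one of −0.04. Kif13a had means of 1315 ± 61.0 (WT) and 1330 ± 59.9 (Oa1-/-), a difference of 0.02 on the log2 scale.

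The 4 partner genes all had small positive changes, with a median of 0.03, and overlapping groups. Stx12 (1448936_at), a SNARE of recycling endosomes that depends on BLOC-1, gave 2932, 3113 and 2762 in WT and 3292, 3118 and 2916 in Oa1-/-. The change was 0.08 (SE 0.08, adjusted p = 0.985 in limma), and it was −0.00 without WT replicate 3 and Oa1-/- replicate 1. Vamp7, the SNARE that delivers cargo to the melanosome, had a change of 0.03, and Lyst, the trafficking regulator mutated in beige mice, 0.02. Rabggta, a subunit of the enzyme that attaches lipid anchors to Rab proteins and is mutated in gunmetal mice, had one of 0.01. Without Oa1-/- replicate 3 the partners' median was −0.02, with 1 positive and 3 negative.

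Probe sets of the same gene often gave different changes. Of the 30 members 16 had several tested probe sets, and in 8 of these all changes had a single sign, while 8 had both signs. The median range within a gene was 0.23 on the log2 scale. Vps33a had the widest, from −0.01 on its brightest probe set to 0.47 on a dim one, with values of 71.2, 128 and 91.4 in WT and 98.9, 125 and 203 in Oa1-/-. Ap3d1 had a change of −0.47 (SE 0.34) on a dim probe set that read 33.6 on Oa1-/- replicate 1 and 91.1 to 120 on the other arrays. Vps41 had changes of −0.05, 0.08 and −0.25, the last on 1437901_a_at, which read 381 on Oa1-/- replicate 1 and 675 to 827 elsewhere. In the last 2 cases a single array set the value.

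**Figure D4:**
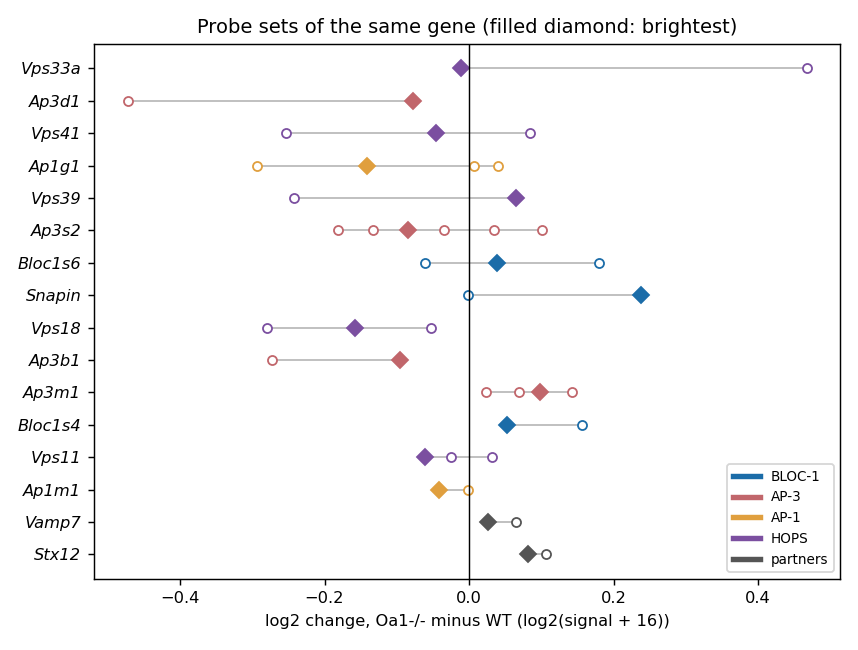
The log2 change (x axis, Oa1-/- minus WT on the log2(signal + 16) scale) of every tested probe set of the 16 members that have several, with the brightest as a filled diamond and the complex as the colour. Genes are ordered by the range between their probe sets, from Stx12 with 0.02 to Vps33a with 0.48.

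Of a list of 49 further genes (BORC, the HOPS relatives CORVET and CHEVI, the remaining AP-1 and AP-3 subunits, other adaptor complexes, and Rabs and SNAREs of the endosome), 48 were tested. Adjusted over all probe sets, 0 passed in limma, and at an unadjusted p below 0.05 there were 2 (4.17%, beside 3.64% of all genes). The median was −0.01, with 23 positive and 25 negative. Ap4s1, the sigma chain of the adaptor AP-4, gave 1838, 1770 and 1604 in WT and 2253, 2022 and 2089 in Oa1-/-. Its groups did not overlap, and the log2 difference was 0.29, with an SE of 0.09 and an adjusted limma p of 0.985. Vps33b, the partner of Vipas39 in CHEVI and a relative of Vps33a, gave 288, 233 and 203 in WT and 122, 198 and 151 in Oa1-/-. These groups were separate too, and the log2 difference of −0.58 had an SE of 0.21 and an adjusted limma p of 0.985. It was −0.36 with array weights. Changes over the 48 genes ran from the −0.58 of Vps33b to 0.36 for Ap5b1.

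In 4 others the arrays did not overlap either, which makes 6 of 48 (12.5%, beside 10.8% of all genes). Of those 4, the Rab escort gene Chml, the endosomal SNARE Stx7 and the AP-5 subunit Ap5b1 had higher Oa1-/- arrays, and Ap1g2, a gamma chain of AP-1, had lower ones.

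Like Ap4s1 and Vps33b, the 3′ and 5′ 18S ribosomal RNA and 5′ Gapdh probe sets had separate ranges in the genotypes. The part of these control values was not tested. Vipas39 had a change of 0.08 on its brightest probe set and −0.11 on the next. BORC, which shares subunits with BLOC-1 and moves lysosomes along microtubules, had 4 of 5 genes tested and changes from −0.02 to 0.12. The subunits of the neuronal form of AP-3, Ap3b2 and Ap3m2, had changes of −0.07 and 0.07. Ap3b2 was highest on WT replicate 3, at 569 against 338 to 456 on the others. Ap1m2, the mu chain of epithelial AP-1, read 62.7 to 99.6 over all arrays, and its change was 0.06.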

How the data were processed

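RNA from 3 WT and 3 Oa1-/- litter pools was hybridised to Affymetrix mouse arrays. The deposited values are linear signal intensities, for which the submitters' processing notes name MAS5 and no version. The scanner data were not used here. All 6 arrays had a mean of 500.002 after the highest and lowest 2% of values were left out, which shows a common scaling. No detection calls were used, and the number of arrays limits the precision.

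Probe sets were named by the platform's annotation, and none from a probe set with several symbols. Signals were taken as log2(signal + 16), and the 27029 of 45101 probe sets whose mean log2 value exceeded the 40th percentile were kept, controls left out. R 4.3.3 with limma 3.58.1 (lmFit, eBayes with an intensity trend) fitted Oa1-/- minus WT, with two-sided tests and Benjamini-Hochberg adjustment over all probe sets kept, at a threshold of 0.05. Replicates are litters of separate dams. The code was tested on simulated data. Per-array values are given for members whose groups do not overlap or whose unadjusted p is below 0.05, and otherwise for the smallest p of a complex; further members and probe sets shown by array were chosen after their values were seen. Alternatives were other pseudocounts, filters, scalings, variance settings, array weights, a replicate block, other choices of probe set and arrays left out. The members and lists were chosen with earlier results of these data known.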

Additional observations from a re-analysis of the deposited data

How the results depend on the processing

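No member passed an adjusted p of 0.05 in limma in any of 19 alternatives, and the smallest adjusted p of a member was 0.389, for Snapin with array weights. Over the whole array 2 probe sets passed with median centring, that of Gpr143 among them, and 2 with array weights, none of them a member's. The members' median was −0.01, and it ran from −0.0390 without WT replicate 1 to 0.0444 without WT replicate 3. Of 30 members 13 kept their sign in every alternative run for them, Ap3s1, Ap3m1, Snapin, Vps16, Hps1 and Ap1g1 among them. The other 17 turned sign at least once. For Snapin, Vps16 and Hps1 18 of the 19 were run. All tested probe sets of these genes carry an _s, _a or _x suffix, so none served for the choice without such suffixes. The second Snapin probe set had a change of −0.00.

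Vps33a turned to 0.02 with quantile normalization (0.0191), 0.0206 with median centring and 0.23 with the mean of its probe sets. Bloc1s2 turned to 0.0288 with median centring and 0.0853 with array weights. Array weights also turned Ap1s1 to −0.00343, Bloc1s3 to −0.0541, Vamp7 to −0.115 and Vps11 to 0.0608. Vps41 was 0.0844 on its brightest probe set of 1 transcript group, and Vps39 was −0.0890 with the mean of its probe sets. The cause was not tested.

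With arrays left out, changes ran from −0.0442 to 0.0921 for Ap1b1, −0.0616 to 0.136 for Ap1s1, −0.198 to 0.0475 for Ap3d1, −0.229 to 0.114 for Ap3s2, −0.0431 to 0.0497 for Bloc1s2, −0.0807 to 0.107 for Bloc1s3 and −0.0450 to 0.147 for Bloc1s4. They ran from −0.174 to 0.0522 for Bloc1s5, −0.0249 to 0.0864 for Bloc1s6, −0.0312 to 0.129 for Lyst, −0.153 to 0.227 for Rabggta, −0.00277 to 0.127 for Stx12, −0.0818 to 0.105 for Vamp7, −0.130 to 0.0855 for Vps11 and −0.0907 to 0.0957 for Vps33a.

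Ap3s1 had an unadjusted limma p above 0.05 without WT replicate 2 (0.0529), WT replicate 3 (0.0636) or Oa1-/- replicate 3 (0.0870), without WT replicate 3 and Oa1-/- replicate 1 (0.0766), with median centring (0.173), without an intensity trend (0.0727) and with the replicate block (0.0548). Vps33b did so with the block (0.0504), with array weights (0.0560) and without WT replicate 1 (0.0921), WT replicate 2 (0.0546), Oa1-/- replicate 1 (0.0711) or Oa1-/- replicate 3 (0.0572). Ap4s1 did so with median centring (0.0960) and without WT replicate 3 and Oa1-/- replicate 1 (0.0702).

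By the labels same-numbered arrays share only a number, and their deviations from the group means correlated at −0.294, 0.152 and −0.248. Deviations taken within such small groups constrain each other, so these values cannot show whether arrays were handled together. With the replicate block 0 probe sets and 0 members passed in limma, and 888 probe sets had an unadjusted p below 0.05, against 1111 without it. With no filter, the 10 member probe sets under it had adjusted p values of 0.993 or above in limma, and their signals ran from 0.726 to 90.05. Dim members such as Hps5, Vps18 and Hps6 are limited by their signal.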
